A study of Mus musculus with 8 samples.

Results

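Antiviral interferon-stimulated genes and RNA sensors were examined here as a group of 37 named genes, taken by symbol from the array annotation with the guanylate-binding, Ifi200 and IFITM families left out. A probe set counted for a gene where it carried that gene's symbol alone, and the probe set with the highest mean over the 8 arrays stood for the gene. By this rule 35 of the 37 genes were measured, through 64 probe sets, among 18193 genes in all. Isg15, read only by a probe set with several symbols, and Ifi44 were not analysed here. Gene expression was profiled in T29 cells, 1 line from a mouse thymic lymphoma. According to the series text it lacks Ikaros, the zinc finger transcription factor encoded by Ikzf1. The cells carried the retroviral vector MigR1, either without an insert named in the labels or with Ik1ER, an inducible form of Ikaros, and were given 100 nM 4-hydroxytamoxifen (4OHT) or ethanol for 24 h. Each of the 4 groups, MigR1 in ethanol, MigR1 in 4OHT, Ik1ER in ethanol and Ik1ER in 4OHT, was hybridised to 2 Affymetrix arrays. Precision is limited by these 2 arrays a group. Separate cultures are not named in the labels, so the p-values measure only how far the arrays of a group lay apart, and that may be technical spread.

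Type I interferons bind the receptor formed by Ifnar1 and Ifnar2, and the kinases Jak1 and Tyk2 then activate STAT proteins that join Irf9 and switch on genes carrying an interferon-stimulated response element. The products sense viral RNA (Ddx58, also called RIG-I, and Ifih1, also called MDA5), block translation or degrade RNA (Eif2ak2, the OAS family, the IFIT proteins), hinder viral entry, replication or release (Mx1, Rsad2, Bst2), or tune the response (Isg15, Usp18). Many of these genes are also transcribed at a basal level without added interferon.

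Values are log2 expression values made with RMA, and a gene was called where limma gave an adjusted p under 0.05 over all 18193 genes in a contrast. The 27 Bacillus control probe sets, for which no target is expected in mouse RNA, had means of up to 5.27, with a median of 3.33. Of the 35 members 27 averaged above the level of 5.27. Dhx58, Irf7, Oas3, Oasl2, Mx1, Ifit1, Xaf1 and Cmpk2 averaged below it. Of 10 T lineage markers 9 read above it, Cd3d as high as 13.42, whereas 2 of 5 B cell, 2 of 5 dendritic cell, 1 of 6 stromal and 1 of 3 erythroid markers did. In Ik1ER cells with 4OHT 5 of the T lineage markers were called (Cd3g -0.69, Ptcra -0.61, Cd3d -0.49, Cd3e -0.43, Cd2 0.87). Of 6 myeloid markers 3 read above the highest control, and 3 of the 6 were called in Ik1ER cells with 4OHT (Cd14 -1.26, Lyz2 -0.60, Itgam 0.54). Their summed level was 31.83 to 32.21 on the Ik1ER ethanol arrays and 30.56 to 30.77 on the Ik1ER 4OHT arrays. In MigR1 cells it was 31.97 to 32.28. Csf1r averaged 6.42 and differed by -0.03. Itgam, Adgre1 and Mpo averaged 4.59, 4.53 and 4.30, below the highest control. The part of the myeloid level in the results was not tested. The dendritic markers, none of them called, summed to between 27.69 and 28.70 on the Ik1ER ethanol arrays and between 29.02 and 30.67 on the Ik1ER 4OHT arrays (27.48 to 29.45 in MigR1 cells), and the stromal ones, likewise uncalled, to between 30.54 and 30.55 and between 29.66 and 29.95 (29.89 to 30.86 in MigR1 cells). Among the dendritic markers Ccr9 differed by 1.57 in Ik1ER cells with 4OHT, and the others by -0.18 (Itgax) to 0.20 (Flt3). Among the stromal ones Pdgfrb differed by -0.905, and the others by -0.20 (Col1a1) to 0.33 (Pdgfra). The part of these shifts was not tested either. Siglech, the defining marker of plasmacytoid dendritic cells, averaged 4.71, below the highest control. Of the 2 Ikzf1 probe sets 1 averaged 8.13 and 8.34 in the MigR1 groups and 10.88 and 10.86 in the Ik1ER groups, in ethanol and 4OHT, and the other averaged 10.11 to 10.30 in all 4 groups. Both Ik1ER arrays numbered 2 differed from the rest in the 3' minus 5' difference of the transferrin receptor. It was 1.66 and 1.91 on them against 1.16 to 1.39 on the other 6 arrays, so member calls are also given without both of them. That leaves 1 array in each Ik1ER group, and the spread then comes from the MigR1 arrays alone.

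The upstream sequences below are shown because they set the members with a textbook interferon element beside their responses. They come from RefSeq (GRCm38.p6), are written 5' to 3' on the strand of the gene, and lie before its annotated start. Capitals mark the core of the interferon-stimulated response element, searched as a pair of GAAA stretches with any 2 bases between them, on either strand (TTTC on the other one). Matches may overlap each other. Rsad2 was called in Ik1ER cells with 4OHT, and Ifit1, Ifit3 and Oas1a were not.
Rsad2 (chr12:26456518-26456617, minus strand): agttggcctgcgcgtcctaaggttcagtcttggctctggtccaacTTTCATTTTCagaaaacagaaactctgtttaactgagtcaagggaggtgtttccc
Ifit1 (chr19:34640749-34640848, plus strand): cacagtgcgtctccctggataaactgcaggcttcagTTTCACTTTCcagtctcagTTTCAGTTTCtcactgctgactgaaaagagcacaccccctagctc
Ifit3 (chr19:34583345-34583444, plus strand): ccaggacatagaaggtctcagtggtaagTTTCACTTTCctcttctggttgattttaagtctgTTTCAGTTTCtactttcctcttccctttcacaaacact
Oas1a (chr5:120907526-120907625, minus strand): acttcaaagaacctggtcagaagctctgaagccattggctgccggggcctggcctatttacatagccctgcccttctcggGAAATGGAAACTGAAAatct
Within 250 bases before the start the core was found in 7 of the 26 measured members with a promoter entry (26.9%), namely Stat2, Oas1a, Oas3, Rsad2, Ifit1, Ifit3 and Bst2, and in 3.46% of all 27025 genes of the table. Rsad2 was the single one among the 8 called members with an entry, and the other 6 matches were among the 18 members that were not called. A second motif, TGGGAA, the core of Ikaros sites, was found on either strand in 7 of the 26 members (26.9%) against 24.1% of all genes. Of the called members it was found in Eif2ak2, where capitals mark it in this stretch.
Eif2ak2 (chr17:78882698-78882797, minus strand): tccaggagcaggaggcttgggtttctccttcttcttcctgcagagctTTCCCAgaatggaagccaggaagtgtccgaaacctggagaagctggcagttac
A TGGGAA match can overlap a match of the interferon core. Such matches describe letters in a short window and not binding. Dhx58, Zbp1, Usp18, Parp9, Parp14, Oas2, Mx1, Mx2 and Rtp4 had no entry.

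When 4OHT was added to Ik1ER cells, the members moved in both directions. Zbp1, Sp100, Ddx58, Nmi, Rsad2 and Irf1 rose, Mx1, Ifih1, Eif2ak2 and Dtx3l fell, and the other 25 were not called. In such bulk RNA, fewer cells of a type and less RNA per cell cannot be told apart. The 10 called members were 28.6% of 35, against 5.34% of all genes tested, with 17.1% higher and 11.4% lower against 2.80% and 2.53%. With dim genes left out 9 of 25 members were called, against 10.9% of all genes. The median log2 difference of the members was -0.01 and that of all genes 0.00, while the median absolute difference was 0.23 in members and 0.10 in all genes. For 12 members both 4OHT arrays lay above both ethanol arrays and for 10 they lay below, together 62.9% against 42.7% of all genes (21.0% higher and 21.7% lower). An unadjusted p under 0.05 was given to 15 members, against 17.8% of all genes. Without both Ik1ER replicate 2 arrays 5 members were called, namely Zbp1, Sp100, Ddx58, Dtx3l and Mx1, against 2.14% of all genes. Without Ik1ER ethanol replicate 2 alone there were also 5, with Nmi in place of Dtx3l.

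**Figure D1:**
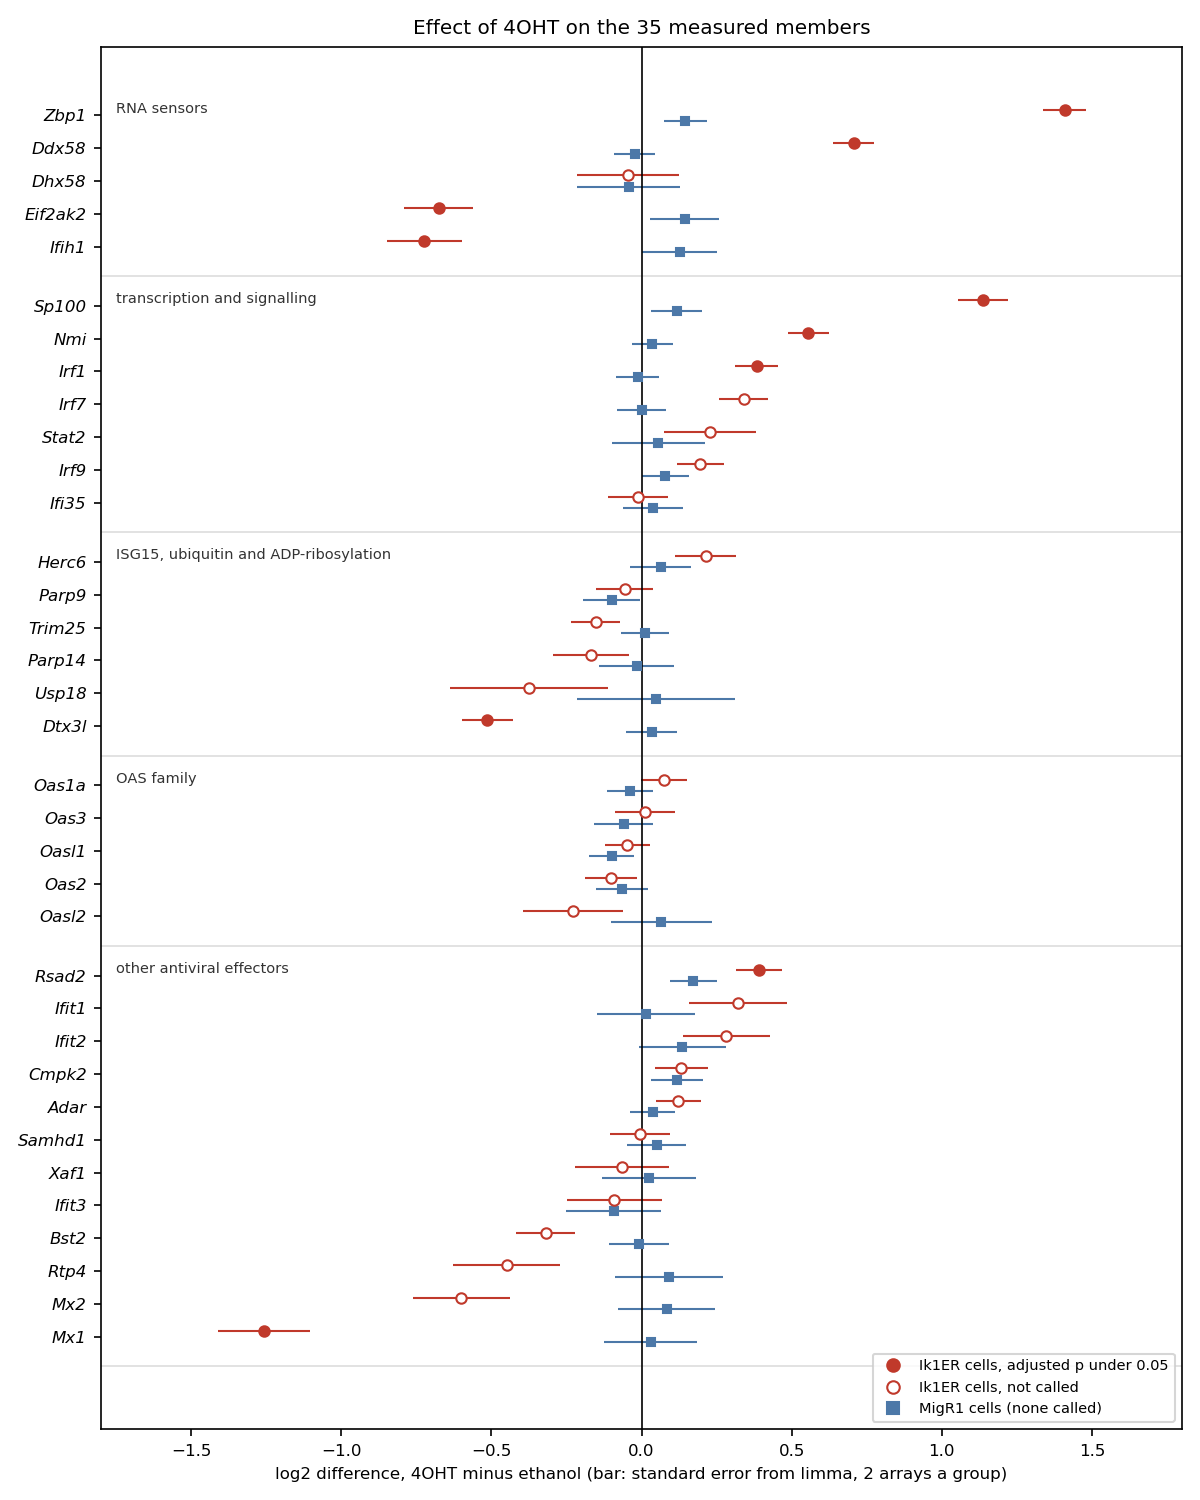
Log2 difference between 4OHT and ethanol (horizontal axis) for each of the 35 measured members, grouped by role, in Ik1ER cells (circles, filled where the adjusted p was under 0.05) and MigR1 cells (squares); bars are standard errors from limma with 2 arrays a group. The Ik1ER values run from -1.26 for Mx1 to 1.41 for Zbp1, and the MigR1 values lie between -0.10 and 0.17.

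Of the 5 RNA sensors 2 rose and 2 fell, against 2.80% higher and 2.53% lower of all genes. Zbp1, which senses left-handed nucleic acids and can trigger necroptosis, read 6.67 and 6.63 on the MigR1 ethanol arrays, 6.78 and 6.81 on the MigR1 4OHT arrays, 6.75 and 6.76 on the Ik1ER ethanol arrays and 8.22 and 8.11 on the Ik1ER 4OHT arrays. Only the last pair was set apart, by more than 1 log2 unit from each of the other 6 arrays. The rise was 1.41 (SE 0.07, 2.66-fold higher, adjusted p = 0.000111), it exceeded the 4OHT effect in MigR1 cells by 1.26 (SE 0.10, adjusted p = 0.00256), and both calls held with each array left out in turn. A second probe set of Zbp1 rose too, by 0.71 (adjusted p = 0.0337 over all probe sets).

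Ddx58, the cytosolic sensor of RNA with 5' triphosphates, read 6.00 and 5.99 on the MigR1 ethanol arrays, 5.98 and 5.96 on the MigR1 4OHT arrays, 5.95 and 5.94 on the Ik1ER ethanol arrays and 6.69 and 6.61 on the Ik1ER 4OHT arrays. The first 6 values lay within 0.06 of each other and the last pair lay above them. Ddx58 rose by 0.71 (SE 0.07, 1.63-fold higher, adjusted p = 0.00144), with a difference between the lines of 0.73 (SE 0.10, adjusted p = 0.0150). The rise held with each array left out. The call of the difference between the lines was lost without any 1 of the 4 MigR1 arrays or either Ik1ER ethanol array (adjusted p at most 0.0848). The other 2 probe sets of Ddx58, both dimmer than the highest control at means of 4.22 and 3.85, differed by 0.11 and 0.08 and were not called, and with the mean over its probe sets Ddx58 was not called.

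Ifih1, the sensor of long double-stranded RNA, went the other way from Ddx58. It read 7.55 and 7.83 in Ik1ER cells in ethanol and 6.85 and 7.09 in 4OHT, where the vector cells gave 7.47 and 7.33 in ethanol and 7.60 and 7.45 in 4OHT. The 4OHT arrays of the Ik1ER line were the lowest of the 8. Ifih1 differed by -0.72 (SE 0.12, 1.65-fold lower, adjusted p = 0.0152), and the call was lost without Ik1ER 4OHT replicate 1 or the second Ik1ER ethanol array (adjusted p at most 0.0910) and without both Ik1ER replicate 2 arrays. Eif2ak2, the kinase PKR that halts translation on double-stranded RNA, read 7.74 and 7.92 in Ik1ER cells in ethanol and 7.19 and 7.12 in 4OHT, where the vector cells gave 7.78 and 7.62 in ethanol and 7.98 and 7.70 in 4OHT. Here too the Ik1ER 4OHT arrays lay below all others. Eif2ak2 differed by -0.68 (SE 0.11, 1.6-fold lower, adjusted p = 0.0142), with the call lost without the replicate 2 array of either Ik1ER group (at most 0.0957) and without both Ik1ER replicate 2 arrays. The other 2 probe sets of Eif2ak2 differed by -0.48 and -0.32 and were not called over all probe sets. The differences between the lines were -0.85 (SE 0.18, adjusted p = 0.0730) for Ifih1 and -0.82 (SE 0.16, adjusted p = 0.0642) for Eif2ak2, neither of which passed. Dhx58 (LGP2), a relative of both helicases without signalling domains, read below the highest control in all groups (means from 4.12 to 4.48) and differed by -0.05.

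**Figure D2:**
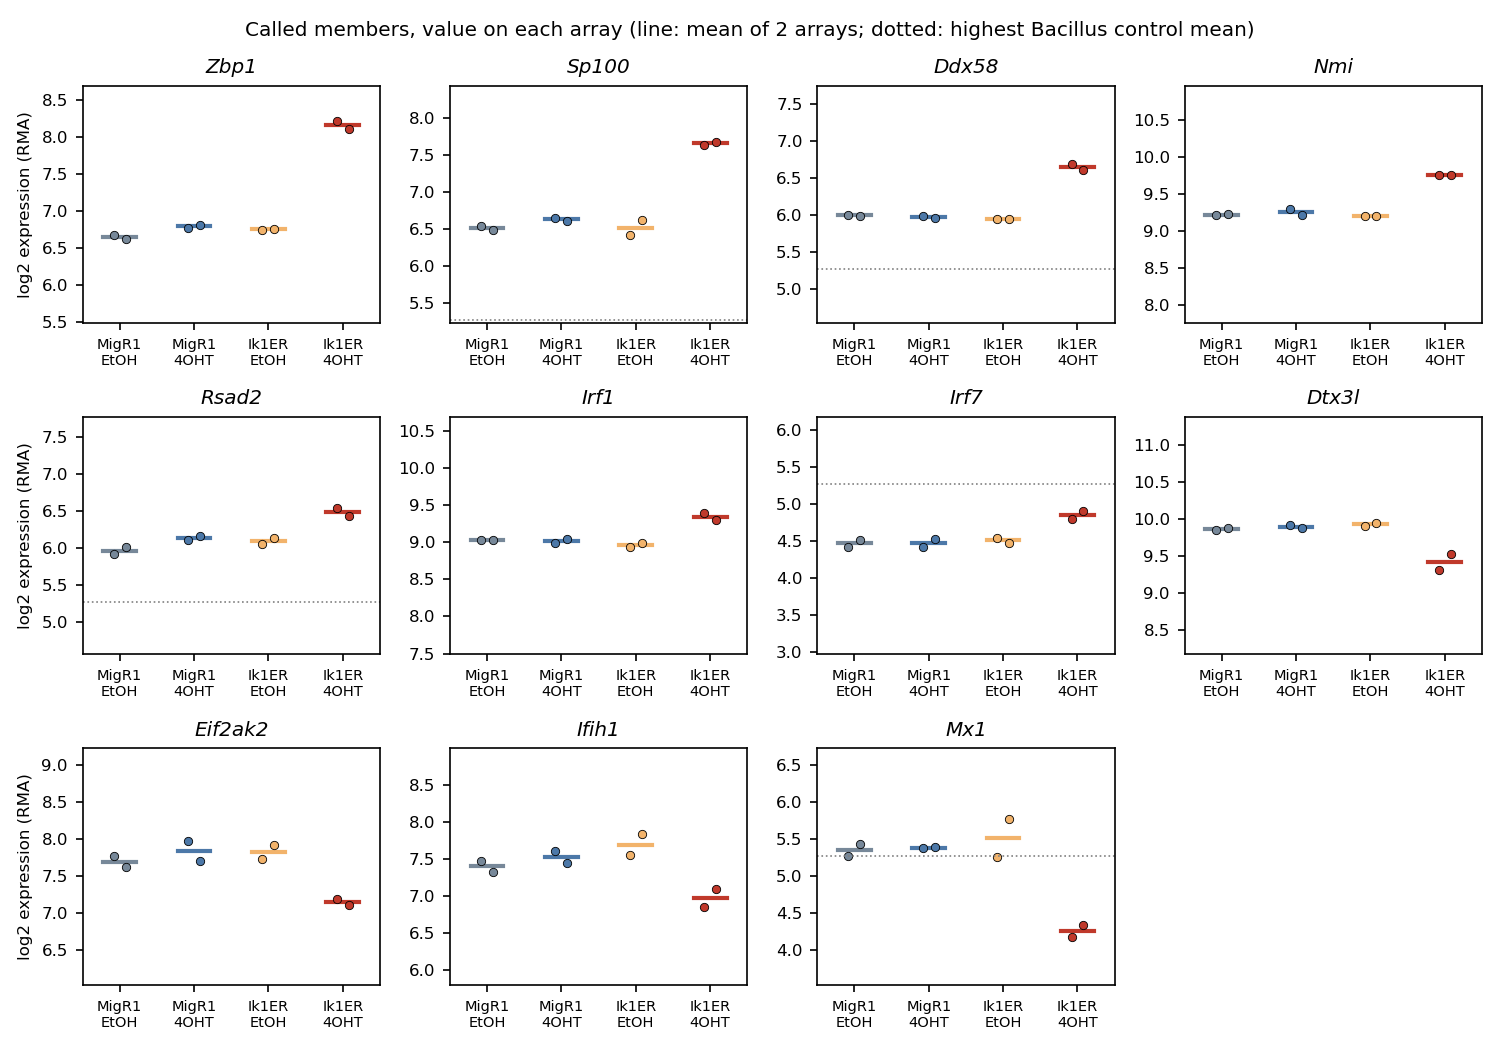
Log2 expression (vertical axis, 3.2 units in each panel) of the 11 members called in Ik1ER cells with 4OHT, against ethanol or against MigR1 cells, with 1 point per array, 2 arrays in each of the 4 groups and a line at the group mean; the dotted line is the highest Bacillus control mean, 5.27. The Ik1ER 4OHT arrays lie above the other 6 for 7 genes and below them for Dtx3l, Eif2ak2, Ifih1 and Mx1.

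Of the 7 members in transcription and signalling 3 rose and none fell, against 2.80% higher and 2.53% lower of all genes. The absence of a fall among 7 genes thus lies near the background. Sp100, a component of PML nuclear bodies, read 6.54 and 6.49 on the MigR1 ethanol arrays, 6.65 and 6.61 on the MigR1 4OHT arrays, 6.42 and 6.62 on the Ik1ER ethanol arrays and 7.63 and 7.67 on the Ik1ER 4OHT arrays. The Ik1ER 4OHT pair lay about 1 log2 unit above all others. It rose by 1.14 (SE 0.08, 2.2-fold higher, adjusted p = 0.000539), and by 1.02 (SE 0.12, adjusted p = 0.00965) more than in MigR1 cells, and its other probe set rose by 1.21 (adjusted p = 0.00365 over all probe sets). The rise held with each array left out, and the call of the difference between the lines was lost without MigR1 ethanol replicate 1 or MigR1 4OHT replicate 2 (at most 0.0598).

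Nmi, which binds MYC and STAT proteins and is induced by interferon, read 9.20 and 9.20 in Ik1ER cells in ethanol and 9.75 and 9.75 in 4OHT, where the vector cells gave 9.22 and 9.22 in ethanol and 9.30 and 9.21 in 4OHT. The Ik1ER 4OHT arrays lay above the other 6. Nmi rose by 0.56 (SE 0.07, 1.47-fold higher, adjusted p = 0.00417), which held with each array left out but not without both Ik1ER replicate 2 arrays, and its difference between the lines, 0.52 (SE 0.10, adjusted p = 0.0534), did not pass. Its binding partner Ifi35 differed by -0.01 and was not called. Irf1, a transcription factor induced by interferon gamma, read 8.94 and 9.00 in Ik1ER cells in ethanol and 9.39 and 9.30 in 4OHT, where the vector cells gave 9.04 and 9.03 in ethanol and 8.99 and 9.05 in 4OHT. All 3 other groups lay between 8.94 and 9.05. Irf1 rose by 0.38 (SE 0.07, 1.3-fold higher, adjusted p = 0.0215), and the call was lost without either MigR1 ethanol array, either Ik1ER ethanol array or Ik1ER 4OHT replicate 1 (at most 0.125) and without both Ik1ER replicate 2 arrays. Irf7, the master regulator of interferon alpha genes, read 4.54 and 4.47 in Ik1ER cells in ethanol and 4.79 and 4.90 in 4OHT, where the vector cells gave 4.42 and 4.51 in ethanol and 4.41 and 4.52 in 4OHT, all below the highest control. The Ik1ER 4OHT pair was the highest. Its difference of 0.34 was not called (adjusted p = 0.0545). The subunits of the interferon-activated complex, Irf9 (0.20) and Stat2 (0.23), were not called. Irf9 averaged 6.57 in ethanol and 6.77 in 4OHT in Ik1ER cells, and 6.47 and 6.55 in MigR1 cells.

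Among 6 members acting through ISG15, ubiquitin or ADP-ribose, Dtx3l alone was called (16.7%, against 5.34% of all genes). Dtx3l, the ubiquitin ligase that works as a pair with Parp9, read 9.91 and 9.95 in Ik1ER cells in ethanol and 9.31 and 9.52 in 4OHT, where the vector cells gave 9.85 and 9.88 in ethanol and 9.93 and 9.88 in 4OHT. The Ik1ER 4OHT arrays were the lowest of the 8. Dtx3l differed by -0.51 (SE 0.09, 1.43-fold lower, adjusted p = 0.0135), and the call was lost without either Ik1ER ethanol array (at most 0.0864). Its other probe set differed by -0.48 (adjusted p = 0.226 over all probe sets). Its partner Parp9 differed by -0.06 and was not called, nor were the ADP-ribosyltransferase gene Parp14 (-0.17), the ISG15 protease gene Usp18 (-0.37), Herc6 (0.21), the main ISG15 ligase of the mouse, and Trim25 (-0.15), a ligase of Ddx58. Herc6 averaged 7.85 in ethanol and 8.06 in 4OHT in Ik1ER cells, and 7.84 and 7.90 in MigR1 cells. Trim25 averaged 10.50 and 10.35 in Ik1ER cells and 10.41 and 10.43 in MigR1 cells. The spread of Usp18 was wide in MigR1 cells, at 7.54 and 6.87 in ethanol and 7.63 and 6.88 in 4OHT.

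None of the 5 members of the OAS family, whose enzymes make the signal that activates RNase L, was called. Their differences ran from -0.23 (Oasl2) to 0.08 (Oas1a), with a median of -0.05, and none of the 5 had an unadjusted p under 0.05. With 5.34% of all genes called and 17.8% under that unadjusted p, such counts among 5 genes lie near the background. The 95% intervals of Oas1a, Oas2, Oas3 and Oasl1 lay within -0.30 and 0.25, and that of Oasl2 reached from -0.62 to 0.16.

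The other 12 effectors held 1 rise and 1 fall (8.33% each), against 2.80% higher and 2.53% lower of all genes. Mx1, a GTPase that blocks influenza virus and is listed as a pseudogene in the reference strain of the RefSeq table, fell. It read 5.26 and 5.77 in Ik1ER cells in ethanol and 4.18 and 4.34 in 4OHT, where the vector cells gave 5.27 and 5.43 in ethanol and 5.37 and 5.39 in 4OHT. The Ik1ER 4OHT pair lay about 1 log2 unit or more below all other arrays and below the highest control. Mx1 differed by -1.26 (SE 0.15, adjusted p = 0.00397), with no fold given since the lower group reads below the highest control. Relative to MigR1 cells the difference was -1.29 (SE 0.22, adjusted p = 0.0380). The fall held with each array left out. The call of the difference between the lines was lost without any 1 of the 4 MigR1 arrays or either Ik1ER 4OHT array (at most 0.152). Its relative Mx2 averaged 6.68 in ethanol and 6.08 in 4OHT in Ik1ER cells, and 6.42 and 6.50 in MigR1 cells. Its difference of -0.60 was not called (adjusted p = 0.0844).

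Rsad2, or viperin, makes a chain-terminating nucleotide, and read 6.05 and 6.14 in Ik1ER cells in ethanol and 6.53 and 6.43 in 4OHT, where the vector cells gave 5.91 and 6.01 in ethanol and 6.11 and 6.16 in 4OHT. The Ik1ER 4OHT pair lay above the rest. Rsad2 rose by 0.39 (SE 0.08, 1.31-fold higher, adjusted p = 0.0275), but the call remained only without Ik1ER 4OHT replicate 2 when single arrays were left out (at most 0.151), and it was lost without both Ik1ER replicate 2 arrays. Its other 2 probe sets, both dimmer than the highest control, differed by 0.54 and 0.12. Its genomic neighbour Cmpk2, a nucleotide kinase that supplies its substrate, differed by 0.13 and was not called.

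The IFIT genes, whose proteins bind foreign RNA ends, were not called. Ifit1 averaged 4.02 and 4.34 in Ik1ER cells and 4.06 and 4.07 in vector cells, each time with ethanol first. Ifit2 averaged 8.29 and 8.58, against 8.02 and 8.16. Ifit3 differed by -0.09 in Ik1ER cells. Bst2 (tetherin), which holds budding virus at the cell surface, averaged 9.51 and 9.19 in Ik1ER cells and 9.62 and 9.61 in MigR1 cells (-0.32, adjusted p = 0.126). Rtp4 averaged 5.38 and 4.93, against 5.38 and 5.47 (-0.45, adjusted p = 0.239). The RNA editing gene Adar (0.12), the nucleotide hydrolase gene Samhd1 (-0.01) and Xaf1 (-0.07) were not called either.

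**Figure D3:**
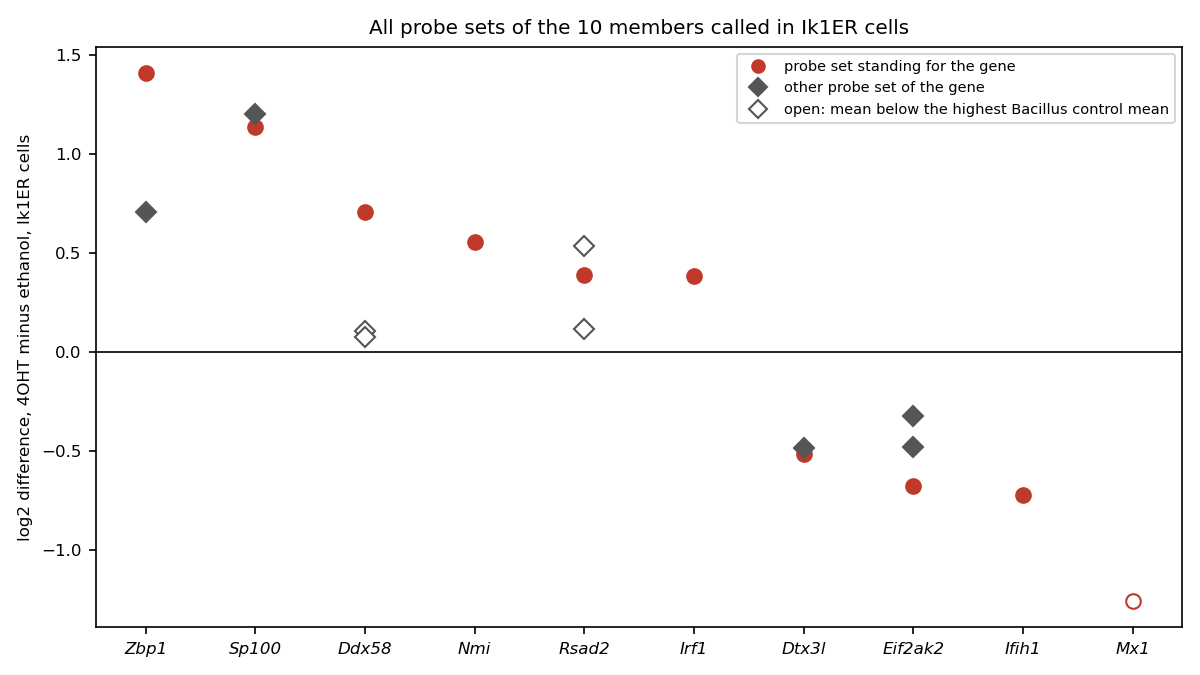
Log2 difference between 4OHT and ethanol in Ik1ER cells (vertical axis) for every probe set of the 10 called members; circles stand for the gene, diamonds are other probe sets of it, and open symbols have a mean below the highest Bacillus control mean. All probe sets of a gene lie on the same side of 0, but those of Ddx58 other than the one used lie at 0.11 and 0.08.

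In MigR1 cells, which lack the Ik1ER insert, limma called no member for 4OHT, and 0.00% of all genes. No member had an unadjusted p under 0.05 there, against 2.12% of all genes, and the differences ran from -0.10 (Parp9) to 0.17 (Rsad2). The test of whether 4OHT acted differently in both lines called Zbp1, Ddx58, Sp100 and Mx1, or 11.4% of members against 1.26% of all genes. The 3 higher values stand against 0.616% of all genes and the 1 lower against 0.649%. An unadjusted p under 0.05 was given to 11 members, against 11.2% of all genes. Without both Ik1ER replicate 2 arrays the test called Zbp1 and Sp100. With each single array left out Zbp1 was called every time, and it was the only member called without MigR1 ethanol replicate 1 or MigR1 4OHT replicate 2. Without either of the other 2 MigR1 arrays Zbp1 and Sp100 were called. Of the members not yet given, the difference between the lines was -0.55 (SE 0.12, adjusted p = 0.0874) for Dtx3l, 0.40 (SE 0.10, adjusted p = 0.137) for Irf1 and 0.22 (SE 0.11, adjusted p = 0.537) for Rsad2, none of which passed.

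Between the lines in ethanol limma called no member and 0.00% of all genes. Ifih1 had an unadjusted p of 0.0466 (0.29), the single member under 0.05, against 5.32% of all genes. The member differences ran from -0.31 (Dhx58) to 0.29 (Ifih1). In 4OHT, Ik1ER cells differed from MigR1 cells in 11 members, or 31.4% against 5.08% of all genes, with 7 higher (2.91% of all genes) and 4 lower (2.17%). An unadjusted p under 0.05 was given to 16 members, against 17.8% of all genes. These comparisons share the Ik1ER 4OHT arrays with the effect of 4OHT in Ik1ER cells. Beside the 10 members above, Irf7 was higher in Ik1ER cells, by 0.38 (SE 0.08, adjusted p = 0.0375) on readings below the highest control in every group, a call lost without any 1 of the 8 arrays (at most 0.207). Zbp1 differed between the lines by 1.37 (SE 0.07, adjusted p = 0.000161), Sp100 by 1.02 (SE 0.08, adjusted p = 0.000831), Ddx58 by 0.68 (SE 0.07, adjusted p = 0.00187) and Mx1 by -1.12 (SE 0.15, adjusted p = 0.00718). The calls of Zbp1, Sp100 and Ddx58 held with each array left out, and that of Mx1 was lost without either MigR1 4OHT array (at most 0.0624). Nmi (0.50), Rsad2 (0.35) and Irf1 (0.33) were also higher and Eif2ak2 (-0.69), Ifih1 (-0.56) and Dtx3l (-0.48) lower, with adjusted p from 0.00734 to 0.0447. Irf1 and Rsad2 lost this call without any 1 of the 8 arrays (at most 0.213 and 0.213), and Ifih1 kept it only without either Ik1ER ethanol array (otherwise at most 0.225). Nmi lost it without MigR1 4OHT replicate 2 (0.0704), Eif2ak2 without MigR1 4OHT replicate 1 or Ik1ER 4OHT replicate 2 (at most 0.0906), and Dtx3l without either MigR1 4OHT array or Ik1ER 4OHT replicate 1 (at most 0.123). Without both Ik1ER replicate 2 arrays 7 of the 11 were called, against 3.25% of all genes. Without MigR1 4OHT replicate 1 or replicate 2 there were 4, against 1.62% and 1.30%.

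Upstream of the members, genes for interferons themselves read low. Ifnb1, Ifna2, Ifna4 and Ifng averaged 4.48, 4.33, 3.82 and 3.26 over the 8 arrays, all below the highest control, and differed by 0.04, 0.09, 0.17 and -0.04 in Ik1ER cells. Of 22 measured genes for interferon ligands, receptors and signalling 5 rose with 4OHT in Ik1ER cells and none fell (22.7% called against 5.34%), with a median of 0.08. Il10rb, a receptor chain shared by interferon lambda and interleukin 10, read 6.06 and 5.83 in Ik1ER cells in ethanol and 7.45 and 7.40 in 4OHT, where the vector cells gave 5.97 and 5.83 in ethanol and 6.07 and 6.09 in 4OHT. The Ik1ER 4OHT pair lay more than 1 log2 unit above the other 6 arrays, among which the MigR1 4OHT pair was the highest. Il10rb rose by 1.48 (SE 0.10, 2.78-fold higher, adjusted p = 0.000323), with a difference between the lines of 1.30 (SE 0.14, adjusted p = 0.00643), while its other probe set, with a mean of 3.63, differed by 0.01. The ligand-binding chain of its lambda receptor partner, Ifnlr1, averaged 4.48 and differed by 0.00.

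Ifngr1, the ligand-binding chain for interferon gamma, read 9.04 and 9.32 in Ik1ER cells in ethanol and 10.09 and 9.94 in 4OHT, where the vector cells gave 9.28 and 9.18 in ethanol and 9.28 and 9.32 in 4OHT. Again the Ik1ER 4OHT pair was the highest. Ifngr1 rose by 0.84 (SE 0.11, 1.79-fold higher, adjusted p = 0.00482), its difference between the lines of 0.77 (SE 0.15, adjusted p = 0.0642) did not pass, and its partner Ifngr2 differed by 0.07 and was not called. Socs1, which restrains JAK kinases, read 7.31 and 7.36 in Ik1ER cells in ethanol and 7.99 and 7.95 in 4OHT, where the vector cells gave 7.42 and 7.52 in ethanol and 7.48 and 7.53 in 4OHT. Both Ik1ER 4OHT arrays exceeded all others. Socs1 rose by 0.63 (SE 0.07, 1.55-fold higher, adjusted p = 0.00290), and by 0.59 (SE 0.10, adjusted p = 0.0411) more than in MigR1 cells. The rises of Il10rb, Ifngr1 and Socs1 held with each array left out. Both chains of the type I receptor rose as well, Ifnar2 by 0.63 (SE 0.13, 1.55-fold higher, adjusted p = 0.0314) and Ifnar1 by 0.42 (SE 0.09, 1.34-fold higher, adjusted p = 0.0423). Their differences between the lines, 0.47 (SE 0.18, adjusted p = 0.386) for Ifnar2 and 0.30 (SE 0.13, adjusted p = 0.449) for Ifnar1, did not pass. Ifnar2 lost its call without either MigR1 4OHT array, either Ik1ER ethanol array or Ik1ER 4OHT replicate 1 (at most 0.167). Ifnar1 lost it without any array except MigR1 ethanol replicate 1 or replicate 2 (at most 0.192), and also with each array centred on its median. Without both Ik1ER replicate 2 arrays neither chain was called. The receptor kinases Jak1 (0.08) and Tyk2 (0.23) were not called.

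**Figure D4:**
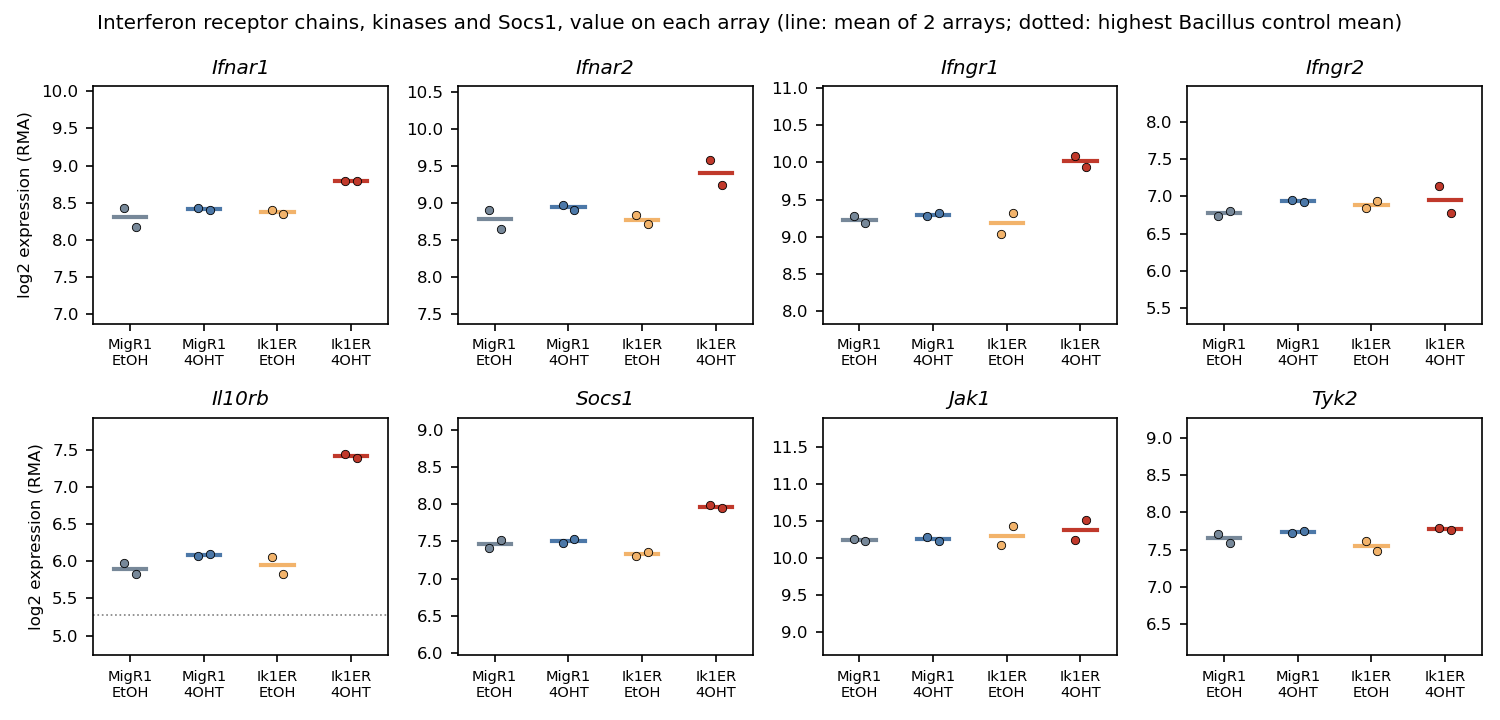
Log2 expression (vertical axis, 3.2 units in each panel) of interferon receptor chains, the kinases Jak1 and Tyk2 and the inhibitor Socs1, with 1 point per array, 2 arrays in each of the 4 groups, a line at the group mean and a dotted line at the highest Bacillus control mean where it lies in the range. The Ik1ER 4OHT arrays lie above the other 6 for Ifnar1, Ifnar2, Ifngr1, Il10rb and Socs1, and narrowly for Tyk2, which was not called.

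The list of adaptors and kinases that carry the sensors' signal also held other genes, such as Cgas, Tlr3, Tlr7, Tlr9, Trim21 and Nlrx1. The adaptor gene Traf3 was not measured. Of 14 measured genes limma called none, beside 5.34% of all genes, and 2 had an unadjusted p under 0.05, beside 17.8%, so these counts lie near the background. The smallest p-values were those of Ikbke (0.26) and Mavs (-0.22), the mitochondrial adaptor of Ddx58 and Ifih1. In MigR1 cells Ikbke differed by a similar 0.22 and Mavs by 0.07. Among 30 further antiviral interferon-stimulated genes 4 rose and 1 fell, 16.7% against 5.34% of all genes. The helicase gene Helz2 rose by 0.60 (SE 0.08, adjusted p = 0.00662) and remained called whichever array was dropped, but not without both Ik1ER replicate 2 arrays. Parp11 (0.39), the IFIT relative Ifit1bl1 (0.83) and the exonuclease gene Isg20 (0.53) rose, and Trim34a (-0.76) fell. Ifit1bl1 averaged 4.55, with every group mean below the highest control. On the Ik1ER 4OHT arrays it read 5.01 and 5.50, the second above that level. Trim34a averaged 5.17 over the 8 arrays, also below the highest control. In Ik1ER cells it went from a mean of 5.53 in ethanol, above that level, to 4.77 in 4OHT, below it. Isg20 lost its call without any 1 of the 8 arrays, with rises of 0.41 to 0.64. Parp11 kept its call only without Ik1ER ethanol replicate 1 (rises of 0.31 to 0.48 with 1 array left out). Ifit1bl1 kept its call only without Ik1ER 4OHT replicate 1 (0.59 to 1.07). Trim34a lost its call without Ik1ER ethanol replicate 2 or either Ik1ER 4OHT array (-0.97 to -0.55).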

How the data were processed

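Total RNA of 8 samples was read on 1 Affymetrix array each. The authors deposited log2 values; the submitters' processing notes name RMA as the method. Which version was run, with which probe set definitions, is not stated in the labels or files used here. RMA compresses differences of dim genes, and a shift of all RNA cannot be seen. Of 45101 probe sets 64 are controls, 34945 carry 1 symbol in the platform annotation, 932 several and 9160 none.

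Group means of all 8 arrays were fitted with limma 3.58.1 in R 4.3.3 (lmFit, eBayes, 4 residual degrees of freedom), with p-values adjusted by Benjamini and Hochberg within each of 5 contrasts. No dim gene was left out. Probe sets taken singly were adjusted over all 45101 probe sets, which is stricter: there Irf1 (0.0501) and Rsad2 (0.0617) missed the threshold in Ik1ER cells. So did Ifnar1 (0.0854), Ifnar2 (0.0604), Isg20 (0.0894), Parp11 (0.0679), Ifit1bl1 (0.0680) and Trim34a (0.0536), though another probe set of Ifnar2 passed (0.0237). The line difference of Mx1 in the 4OHT effect missed it as well (0.0770). Between the lines in 4OHT Ifih1 (0.0833), Irf1 (0.0952), Irf7 (0.0796) and Rsad2 (0.0944) missed it. The alternatives changed normalization, centring, the probe set rule, dim genes, eBayes options, arrays fitted, the threshold and the block. The fit was tested on simulated data with independent noise on each array. That test cannot show the error rate under the correlations between same-numbered arrays given below. Replicate numbers were not used as a block in the main fit, since the labels tie no number to a shared culture or day. Deviations of same-numbered arrays correlated at 0.45 within the Ik1ER line, 0.27 within MigR1 and -0.07 to 0.10 across lines. The block run as an alternative was shared by both lines. A block within each line was not run, so pairing within a line was not tested. Members and lists were chosen with earlier results of these data known, so that their counts are descriptions. Values on every array are given for called members and group means for the next 8 by p-value.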

Additional observations from a re-analysis of the deposited data

Results flagged for a closer look

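The effect of 4OHT differed between the Ik1ER and MigR1 lines in 4 members, by limma's interaction test with an adjusted p under 0.05. On the log2 scale the effect in Ik1ER cells minus that in MigR1 cells was 1.26 for Zbp1, 1.02 for Sp100, 0.73 for Ddx58 and -1.29 for Mx1. The effect in Ik1ER cells itself was 1.41, 1.14, 0.71 and -1.26, and that in MigR1 cells 0.15, 0.12, -0.02 and 0.03. Groups of 2 arrays are too small for a search for single outlying arrays.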

How the results depend on the processing

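In Ik1ER cells 10 members were called for 4OHT, and 6 with only the arrays of the groups compared, 3 with a log2 difference of at least 1, 5 without both Ik1ER replicate 2 arrays, and 5 to 10 with 1 array left out (5 without Ik1ER ethanol replicate 2). The last 2 kinds leave 1 array in a group, assumed to vary like the others. Over all genes, the differences between the 2 arrays had standard deviations of 0.15 and 0.16 in the MigR1 groups. In the Ik1ER groups these were 0.17 and 0.21, with ethanol first each time. All genes gave 971 calls, against 399, 156, 389 and 441 to 832. The line difference in the 4OHT effect called 4 members, and 8 with trend and robust eBayes, 7 after repeated quantile normalization, 2 without both arrays, and 1 to 4 with 1 left out (230 of all genes, against 444 with trend, 109 at a difference of at least 1, 90 and 52 to 273). The lines in 4OHT differed in 11 members, and in 5 with only the arrays compared, 3 at a difference of at least 1, 7 without both arrays and 4 to 8 with 1 left out (925 of all genes, against 416, 140, 592 and 237 to 805). The other contrasts called 0 members in every setting run. With the replicate block 11, 4 and 11 members were called in the same 3 contrasts. The labels and correlations do not establish that the number pairs the samples. The block gained Bst2 in the first contrast and exchanged Ifih1, Irf1 and Rsad2 for Ifit2, Bst2 and Rtp4 in the third. Of 242 values of called members under settings that leave out no single array, 193 kept their call and 49 lost it, and of 200 with 1 array left out 130 kept it. None of these changed sign. Of 22 from other probe sets 2 did, both of 1 dim Ddx58 probe set, at -0.0545 for the line difference in the 4OHT effect and -0.0585 between the lines in 4OHT. Mx1 and Irf7 had no value with dim genes left out. The cause of these shifts was not tested. For members dimmer than the controls, signal over background limits what can be seen.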

Other observations

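Usp18 had the widest gap between arrays of a group among the members. Replicates 1 and 2 of MigR1 cells read 7.54 and 6.87 in ethanol and 7.63 and 6.88 in 4OHT, while those of Ik1ER cells read 7.50 and 7.36 and 7.07 and 7.05. By comparison, the arrays of Nmi in Ik1ER cells read 9.20 and 9.20 in ethanol and 9.75 and 9.75 in 4OHT.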
